A study of Homo sapiens with 6 samples.

Results

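Transcripts of 56 transcription factor genes, most of them homeobox genes, were described in neurons depleted of RBM12. The 56 were all rows, of 19823 genes in the table, whose symbol begins with HOX, LHX, PHOX2, ISL, POU, PAX, NKX, DLX, EMX, OTX, MEIS, PBX, NEUROD or NEUROG and a number, or that belong to the sine oculis homeobox family or are TBR1. They were selected by name, but the set was chosen with earlier results of these data known. The 6 samples were poly(A) RNA-seq libraries of neurons made from the WTc11 line of human induced pluripotent stem cells. All 6 carried the same RBM12 knockdown, 3 were untreated and 3 received isoproterenol, an agonist of beta-adrenergic receptors that raises cAMP. The line is a single clone in which doxycycline switches on NGN2, placed in the AAVS1 safe harbor locus, and which expresses dCas9-KRAB for silencing by a guide RNA. The authors state that its neurons have little beta-2 adrenergic receptor of their own and respond only modestly. They added the receptor for other experiments, but the titles of these 6 samples name no added receptor. The paper also describes RNA-seq of untreated and isoproterenol-treated RBM12 knockdown neurons from the parental line, with native receptors only. The dose and duration of isoproterenol for these 6 samples, and whether replicates were separate cultures, are not given in the sources used here. The p-values below therefore measure the spread between these samples, which may be technical.

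Homeobox genes encode proteins that bind DNA through a homeodomain, whose recognition helix lies in the major groove. Combinations of them, laid down in the progenitor and kept in the mature cell, set which transmitter, axon path and receptor set a neuron acquires. HOX genes mark position along the hindbrain and spinal cord, EMX and OTX genes mark forebrain and midbrain, and LIM, POU and PHOX2 genes mark classes of sensory, motor and autonomic neurons. NEUROG and NEUROD genes encode basic helix-loop-helix proteins that start neuronal differentiation, and NGN2 is another name of the NEUROG2 product.

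The homeodomain of 48 of the 56 genes was found in the coding sequence of its reference transcript by the protein pattern tryptophan, phenylalanine, any residue, asparagine, any residue, arginine. The other 8, namely NEUROD1, NEUROD2, NEUROD4, NEUROG2, TBR1, PAX2, PAX5 and PAX8, held no match. The 24 bases from the first codon of this match are shown because they separate the most abundant families by a single codon, printed in capitals, which encodes the residue of the recognition helix known for its part in the choice of DNA site. They were read from GRCh38 in the sense of each gene with GENCODE release 44 coordinates, at chr13:78601448-78601471 (minus strand) for POU4F1, chr9:125960693-125960716 (plus) for PBX3, chr2:44942861-44942884 (plus) for SIX3, chr17:36942203-36942226 (plus) for LHX1, chr1:197929005-197929028 (plus) for LHX9 and chr11:31793776-31793799 (minus) for PAX6. That of MEIS3 was split by an intron, within chr19:47407116-47407353 (minus).
POU4F1: tggtttTGCaaccagagacagaag
PBX3: tggtttGGCaacaaacgaatcagg
SIX3: tggtttAAGaaccggcggcagcgc
MEIS3: tggttcATTaacgcccggagacgc
LHX1: tggttcCAGaaccggcgctccaag
LHX9: tggttcCAAaacgcacgagccaaa
PAX6: tggtttTCTaatcgaagggccaaa
The capitals encode cysteine in POU4F1, glycine in PBX3, lysine in SIX3, isoleucine in MEIS3, glutamine in LHX1 and LHX9, and serine in PAX6. The glutamine codon CAG was the most frequent, in 19 of the 48 genes, and CAA stood in 3 more. These 22 were all HOX, LHX, ISL, PHOX2, NKX, EMX and DLX members with a match. The codon TGC was found in 8 POU genes and TGT in 4. Summed over their genes, the median untreated levels per length came to 632 TPM (a level per exon length, defined below) for TGC and to 242 TPM for CAG, although the latter was carried by more genes. A single gene made up most of each sum, POU4F1 at 454 TPM for TGC and LHX1 at 167 TPM for CAG.

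The libraries held between 18116816 and 21488793 reads in genes. RBM12, the silenced gene, was at 244, 279 and 267 normalized counts in the 3 untreated samples and at 195, 238 and 233 in the 3 treated ones. Libraries without the knockdown were not analysed here, so these values do not measure its depth. FOS, an immediate early gene that responds to cAMP, was at 536, 648 and 680 normalized counts without the agonist and at 1219, 1649 and 2338 with it. All 3 treated libraries lay above all 3 untreated ones, and the log2 fold change was 1.44 (limma adjusted p = 0.435 without and 0.027 with the replicate block described below).

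The labels call the cells glutamatergic excitatory neurons. The vesicular glutamate transporter genes SLC17A6 and SLC17A7 were at medians of 598 and 106 TPM in the untreated samples, and the 4 GABAergic markers summed to between 4.72 and 6.27 TPM, with GAD1 at 0.459 and GAD2 at 0.756 TPM. Cholinergic genes were also high, with the choline transporter SLC5A7 at 313 TPM (log2 fold change with isoproterenol 0.09, limma adjusted p = 0.882 without and 0.0069 with the block), the vesicular acetylcholine transporter SLC18A3 at 224 TPM and the synthesizing enzyme CHAT at 14.0 TPM. The peripheral neuron genes RET, SCN9A and PRPH were at 114, 90.1 and 50.04 TPM. All 10 pan-neuronal markers were at 1 TPM or more in the 3 untreated samples, with STMN2 at 6701 TPM and TUBB3 at only 2.18 TPM. Whether this low TUBB3 value reflects the cells or the counting of reads was not tested. The 6 measured of 7 neural progenitor markers summed to 355 to 373 TPM, nearly all of it from the intermediate filament genes NES and VIM, at medians of 257 and 95.4 TPM, while FABP7, HES5, HES1 and SOX2 were at 3.04, 1.90, 0.791 and 0 TPM. Of these, FABP7 alone passed with the block (log2 fold change 0.93, limma adjusted p = 0.205 without and 0.0017 with the block). The glutamatergic marker GRIN1 also passed with it (log2 fold change 0.29, limma adjusted p = 0.364 without and 0.00027 with the block). So did the pan-neuronal marker ELAVL4 (log2 fold change 0.11, limma adjusted p = 0.620 without and 0.019 with the block). The part of these markers in the levels and changes below was not tested. Markers of other cells were lower. The 4 measured of 9 pluripotency markers, SOX2 among them, summed to 11.6 to 13.6 TPM, most of it from PODXL. The 2 measured of 6 astrocyte markers summed to 9.57 to 10.1 TPM and the 3 measured of 6 proliferation markers to 10.6 to 13.3 TPM. In bulk RNA a smaller share of cells of a type and less RNA per cell cannot be told apart.

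**Figure D1:**
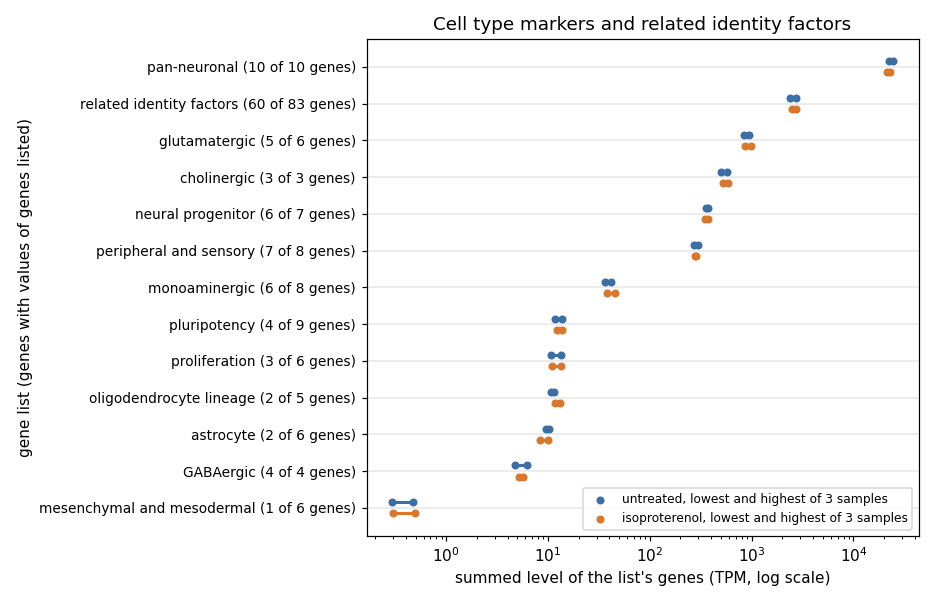
Summed level (TPM, log axis) of each marker list and of the related identity factors, with points at the lowest and highest of the 3 samples of a group and a line between them; the numbers in brackets are genes with values and genes listed. Pan-neuronal, glutamatergic and cholinergic lists are high and GABAergic and mesenchymal lists low, and the summed levels of the 2 groups lie close together in every list.

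To compare genes with each other, reads were divided by the length of all exons of the gene and scaled to the same sum in every library, a level called TPM here. By this level 34 of the 56 genes were at 1 TPM or more in all 3 untreated samples, 16 of them at 10 or more and 7 at 100 or more. A further 17 were under 1 TPM in all 3, and 5 lay on both sides of that limit. With the longest transcript or the MANE Select transcript as the length, 33 and 36 genes were at 1 TPM or more in all 3. The 56 genes took 0.291% to 0.335% of all reads in a library. POU4F1 took 13.6% to 15.6% of those reads.

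**Figure D2:**
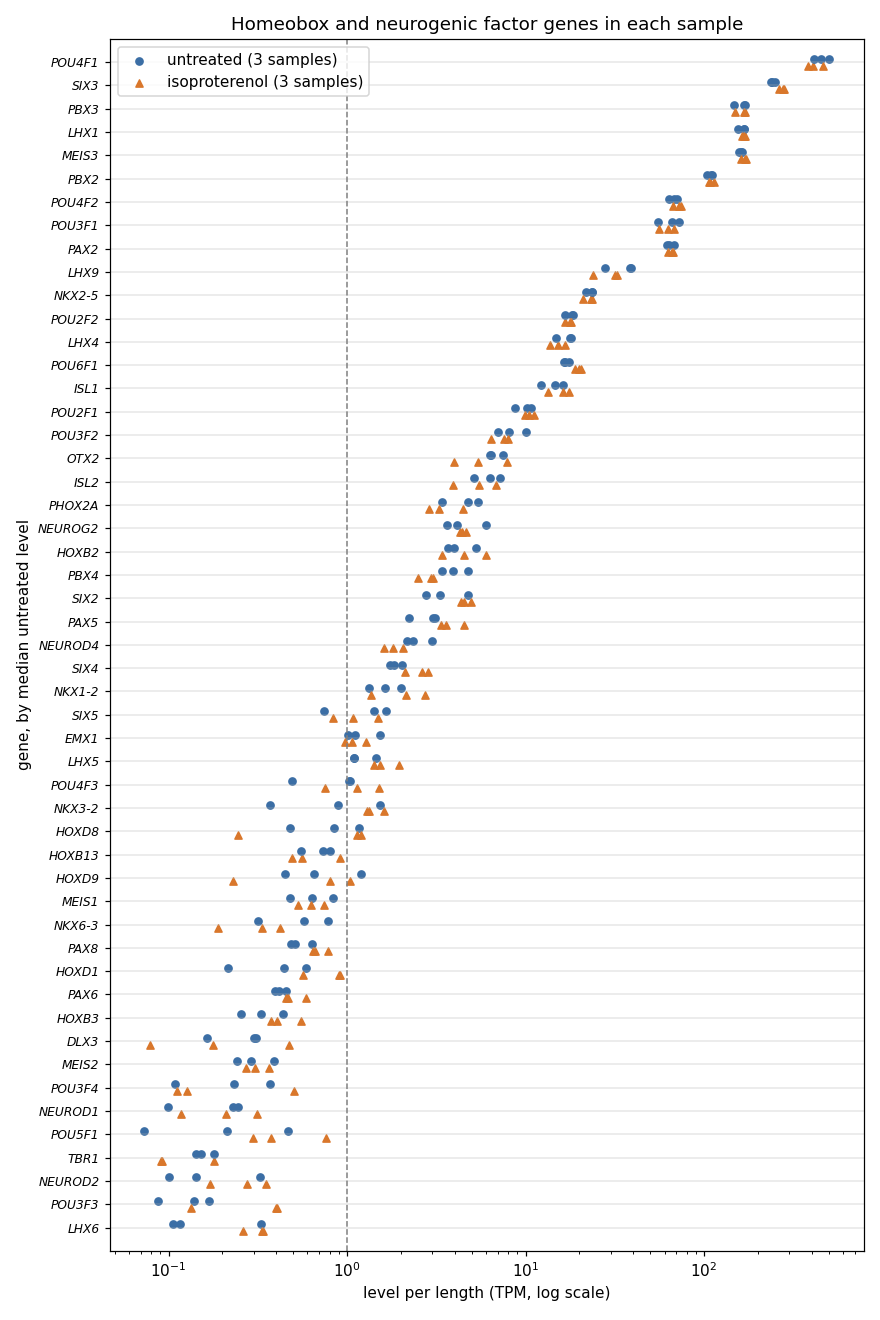
Level per length (TPM, log axis) of 51 of the 56 genes in each sample, ordered by the median of the 3 untreated samples; the dashed line marks 1 TPM. Levels run from over 400 TPM for POU4F1 to about 0.1 TPM for LHX6, and for most genes the 2 groups occupy the same range.

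Among sensory, motor and autonomic factors, POU4F1 (BRN3A), which specifies somatosensory and other projection neurons, was the most abundant. It lies at chr13:78598362-78603552 on the minus strand and was at 454, 502 and 414 TPM in untreated replicates 1 to 3. Its paralog POU4F2 (BRN3B), best known from retinal ganglion cells, was at 67.4, 70.0 and 64.0 TPM. POU4F3 (BRN3C), of hair cells, was at 1.04, 1.03 and 0.489 TPM. The 3 paralogs were thus far apart, and their ranges did not overlap. The longest run of bases shared by POU4F1 and POU4F2 transcripts was 29 and that shared by POU4F1 and POU4F3 was 32. Of the exon bases of POU4F1, 27.7% also belong to AL445209.1 on the opposite strand, a gene at 53.3 to 81.9 normalized counts across the 6 samples.

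ISL1 and ISL2, LIM-homeodomain genes of motor and sensory neurons, were lower, at 16.1, 12.2 and 14.6 TPM and at 6.36, 7.22 and 5.13 TPM. LHX4, of motor neurons and pituitary, was at 17.8, 17.9 and 14.8 TPM, with 30.7% of its exon bases shared with ACBD6 on the opposite strand. PHOX2A, an autonomic determinant, was at 4.74, 3.42 and 5.41 TPM. Of this group of 8 genes, 7 were at 1 TPM or more in all untreated samples.

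The TALE cofactors bind DNA together with other homeodomain proteins. PBX3 was at 169, 168 and 147 TPM and PBX2 at 104, 111 and 109 TPM. PBX4 was far below both, at 3.92, 3.41 and 4.77 TPM. In the partner family, MEIS3 stood at 163, 156 and 161 TPM, whereas MEIS1 was at 0.835, 0.632 and 0.480 TPM and MEIS2 at 0.243, 0.291 and 0.388 TPM. With the MANE Select length the median of MEIS1 was 1.52 TPM and that of MEIS2 0.631 TPM, still far below MEIS3.

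The order at the top depended on which length was used. With the union of exons the untreated medians were 454 TPM for POU4F1, 241 TPM for SIX3 and 161 TPM for MEIS3. With the reference (MANE Select) transcript they were 454, 241 and 409 TPM, and with the longest annotated transcript 347, 184 and 290 TPM. SIX3 was thus above MEIS3 with the union of exons and below it with either of the other lengths.

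The interneuron group held LHX1, LHX5 and LHX9, LIM-homeodomain genes of spinal and hindbrain interneurons. LHX1 was at 167, 168 and 155 TPM and its close paralog LHX5 at 1.09, 1.46 and 1.10 TPM. The longest run shared by the LHX1 and LHX5 transcripts was 53 bases. LHX9, a gene of dorsal spinal interneurons, was at 39.2, 38.2 and 27.8 TPM, with replicate 3 lowest.

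SIX3, an eye and forebrain gene, was at 241, 251 and 236 TPM. SIX2, SIX4 and SIX5, of kidney, muscle and placodes, were at medians of 3.33, 1.84 and 1.41 TPM. Of the other PAX genes, PAX2, of midbrain, hindbrain and spinal interneurons, was at 67.6, 63.8 and 62.2 TPM, PAX5 at 3.05, 2.21 and 3.12 TPM and PAX8 at 0.514, 0.635 and 0.484 TPM. NKX2-5, best known as a cardiac gene, was at 23.5, 21.9 and 23.7 TPM.

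Among POU genes outside the BRN3 family, POU3F1 (OCT6) was at 66.3, 72.2 and 54.9 TPM. POU3F2 (BRN2), a cortical factor used in direct conversion to neurons, was at 8.07, 10.1 and 7.05 TPM, and POU3F3 and POU3F4 were under 1 TPM. POU3F1 and POU3F3 transcripts shared a run of 83 bases, the longest of any pair compared. POU2F2, POU6F1 and POU2F1 were at medians of 18.2, 16.7 and 10.2 TPM. POU5F1 (OCT4), the pluripotency gene, was at 0.466, 0.213 and 0.0732 TPM, from 6, 3 and 1 reads.

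Telencephalic genes were low. TBR1, a deep-layer cortical factor, was at 0.142, 0.152 and 0.179 TPM, PAX6, of cortical progenitors, at 0.453, 0.394 and 0.417 TPM and EMX1, of dorsal telencephalon, at 1.02, 1.52 and 1.11 TPM. OTX2, of forebrain and midbrain, was the highest of the 4, at 6.42, 6.29 and 7.48 TPM. LHX6, of ventral telencephalic interneurons, was at 0.116, 0.106 and 0.328 TPM, the lowest median of the 56 by union of exons. These levels depended on the length used: with the MANE Select transcript the medians were 3.14 TPM for PAX6, 2.84 TPM for EMX1 and 0.374 TPM for TBR1, in place of 0.417, 1.11 and 0.152 TPM. EMX2, DLX2, DLX5 and NKX2-1 had no row.

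The neurogenic genes were low as well. NEUROG2 was at 6.02, 3.64 and 4.12 TPM, NEUROD4 at 3.01, 2.18 and 2.35 TPM, NEUROD1 at 0.244, 0.0992 and 0.230 TPM and NEUROD2 at 0.143, 0.326 and 0.101 TPM. With the MANE Select length the medians of NEUROD1 and NEUROD2 were 0.758 and 0.294 TPM, in place of 0.230 and 0.143 TPM. NEUROD6 had no row. The line carries an NGN2 transgene, and reads from it and from the resident NEUROG2 gene cannot be told apart in this table.

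HOX genes were represented by 6 rows, in 2 clusters. HOXB2, a gene expressed from the hindbrain backwards, was the only one at 1 TPM or more in all untreated samples, at 5.26, 3.98 and 3.68 TPM. HOXB3 was at 0.330, 0.439 and 0.254 TPM, and HOXB13, HOXD1, HOXD8 and HOXD9 had medians between 0.445 and 0.847 TPM. No HOXA or HOXC gene had a row.

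Read down the order of the 12 highest medians by union length, neighbours whose untreated ranges overlapped included PBX3 and LHX1, LHX1 and MEIS3, POU4F2 and POU3F1, and POU3F1 and PAX2. The neighbours SIX3 and PBX3, MEIS3 and PBX2, PBX2 and POU4F2, PAX2 and LHX9, and LHX9 and NKX2-5, did not overlap.

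Factors of neuronal identity outside the name pattern were read beside these. Of 83 such genes listed, 60 had values and 47 were at 1 TPM or more in all untreated samples. The cut-homeobox genes ONECUT3 and ONECUT2 were at medians of 514 and 276 TPM, and the Iroquois genes IRX2 and IRX1 at 304 and 109 TPM. EBF3 and NHLH2, helix-loop-helix factors of differentiating neurons, were at 161 and 145 TPM, and DRGX, a homeobox gene of sensory relay neurons, was at 115 TPM.

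The second question was whether isoproterenol changed these transcripts. For this comparison values are normalized counts, the reads of a gene divided by the size factor of its library, and log2 fold changes are differences of log2(normalized count + 1), isoproterenol minus untreated. Of the 56 genes, 48 had more than 5 reads in at least 4 samples and were tested, among 18130 genes in all. The 8 below this limit included DLX3, HOXD1, NEUROD2, NKX6-3, POU3F3, POU3F4 and POU5F1.

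None of the 48 passed an adjusted p of 0.05 in the limma fit of all 6 samples without pairing, in which 0.0165% of all genes passed. The smallest adjusted p was 0.427, for SIX3. At an unadjusted p under 0.05 the count was 6 of 48, or 12.5%, against 7.68% of all genes, and edgeR and DESeq2 without pairing also called 0 of the 48. Same-numbered samples of the 2 groups deviated together, so a fit with the replicate number as a block was also made. With the block 6 of the 48 genes passed, 12.5% against 4.88% of all genes tested. Of these 3 were higher, where 2.82% of all genes were called higher, and 3 were lower, where 2.06% were called lower.

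Across the 48 genes the median log2 fold change was -0.0041, beside 0.0015 over all genes, with 23 above 0 and 25 below. The direction was the same in all 3 pairs for 24 of the 48 genes, or 50%, and for 36.1% of all genes. For the 23 genes whose mean reached 100 normalized counts, the median size of the log2 fold change was 0.09, and for the 11587 such genes of the whole table it was 0.06. No test was made of these medians.

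**Figure D3:**
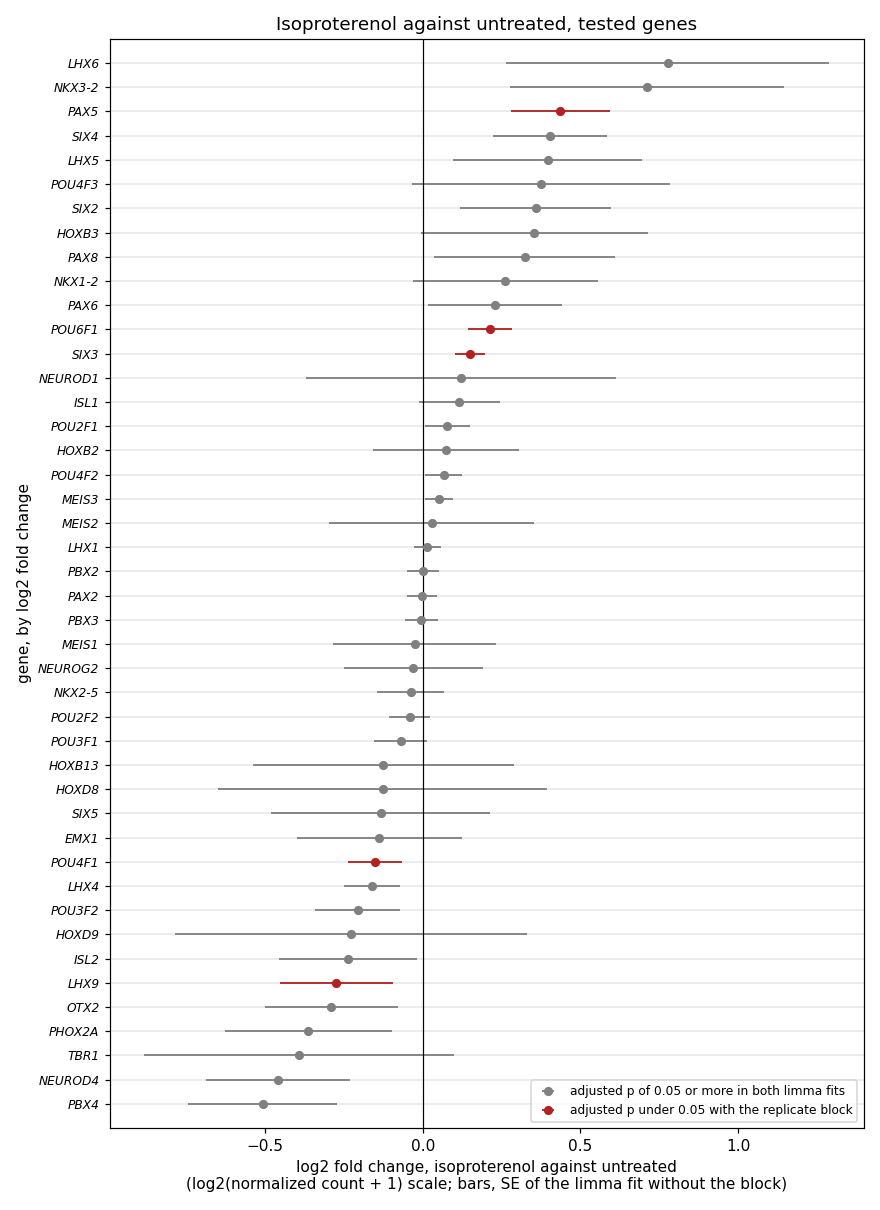
Log2 fold change of 44 of the 48 tested genes, isoproterenol against untreated, on the log2(normalized count + 1) scale, with bars for the SE of the limma fit without the block; red marks the 5 genes shown with an adjusted p under 0.05 with the replicate block. The red points lie between -0.28 and 0.44, and the widest bars belong to genes with few reads.

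The 3 genes that were lower with the block included LHX9 and POU4F1. In replicates 1 to 3 LHX9 was at 1918, 1897 and 1433 normalized counts without isoproterenol and at 1537, 1612 and 1186 with it. The groups overlapped, because replicate 3 was the lowest sample of both, yet each treated sample lay below the untreated sample of its number. The log2 fold change was -0.28, with an SE of 0.18 without the block (limma adjusted p = 0.785) and 0.04 with it (limma adjusted p = 1.7e-07).

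POU4F1 was at 9659, 10838 and 9259 normalized counts in the untreated samples and at 8569, 9965 and 8271 in the treated ones. It too overlapped between groups and was lower in 3 of 3 pairs, by -0.17, -0.12 and -0.16 on the log2 scale. The log2 fold change was -0.15, with an SE of 0.02 with the block (limma adjusted p = 1.4e-07, against 0.735 without it). Its opposite-strand neighbour AL445209.1 had a log2 fold change of 0.08 (limma adjusted p = 0.956 without the block and 0.900 with it).

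In fits on whole reads with the block, DESeq2 called 3 of the 48 genes, LHX9 and POU4F1 among them, against 0.789% of all genes, and edgeR called 6, against 5.39%.

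The 3 genes that were higher with the block were SIX3, PAX5 and POU6F1, and in all of them the groups did not overlap. SIX3 was at 3060, 3232 and 3160 normalized counts in the untreated samples and at 3305, 3562 and 3617 in the treated ones. Its log2 fold change was 0.15, with an SE of 0.05 without the block and 0.03 with it (limma adjusted p = 0.00038 with the block). Of its exon bases, 7.63% are shared with SIX3-AS1 on the opposite strand.

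PAX5, a B-lymphocyte and midbrain gene, was at 137, 101 and 147 normalized counts in the untreated and 160, 152 and 207 in the treated samples. The log2 fold change was 0.44, with an SE of 0.12 with the block (limma adjusted p = 0.021). POU6F1 (BRN5) was at 523, 507 and 519 normalized counts in the untreated and 610, 574 and 612 in the treated samples, with a log2 fold change of 0.21 and an SE of 0.07 with the block (limma adjusted p = 0.035). Neither PAX5 nor POU6F1 was called by DESeq2 with the block. When 1 pair at a time was left out, LHX9 and POU4F1 passed every time, whereas SIX3 was lost without pair 3, PAX5 without pair 2 or pair 3, and POU6F1 without any of the 3.

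**Figure D4:**
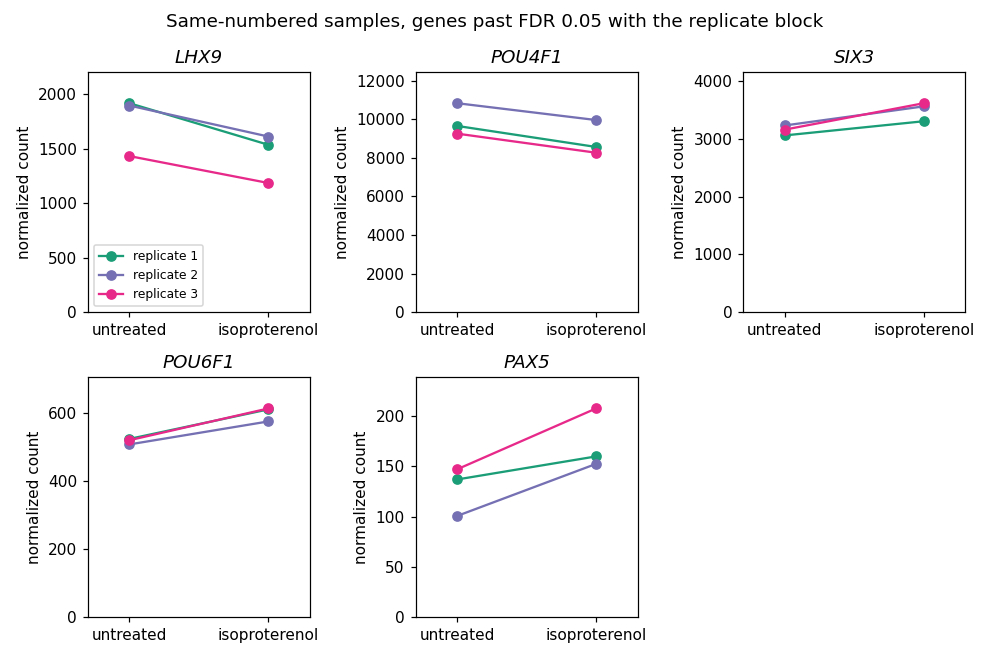
Normalized counts of 5 genes with an adjusted p under 0.05 with the replicate block, with lines joining same-numbered untreated and isoproterenol samples and each axis starting at 0. LHX9 and POU4F1 fall along all 3 lines and SIX3, POU6F1 and PAX5 rise along all 3, by amounts that are small beside the level.

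In 9 of the 48 genes, or 18.8%, the 3 treated values all lay on one side of the 3 untreated values, as they did in 12.9% of all genes. They were higher in 6 genes, SIX3, POU6F1, PAX5, PAX6, PAX8 and SIX4, where the share over all genes was 6.73%. They were lower in 3, PBX4 and NEUROD4 among them, where it was 6.19%. With 3 samples against 3, an exact permutation test of a single gene cannot give a p below 0.1.

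Where the mean reached 10 normalized counts, the largest of the 48 log2 fold changes was that of NKX3-2, a skeletal and gut patterning gene. It was at 9.40, 16.4 and 4.14 normalized counts untreated and at 14.0, 13.8 and 17.4 treated, a log2 fold change of 0.71 with an SE of 0.43, and the groups overlapped. PAX5 came next. SIX4 was at 58.5, 65.8 and 57.9 untreated and 82.8, 68.0 and 92.3 treated (log2 fold change 0.40, SE 0.18), and LHX5 at 15.7, 21.3 and 16.6 untreated and 21.95, 20.8 and 28.7 treated (log2 fold change 0.40, SE 0.30). Apart from PAX5, none of these passed either limma fit.

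The largest fall was that of PBX4, at 42.8, 37.7 and 54.8 normalized counts untreated and 32.9, 27.7 and 32.8 treated, a log2 fold change of -0.51 with an SE of 0.24. NEUROD4 was at 55.3, 40.6 and 45.5 untreated and 37.9, 30.0 and 33.9 treated (log2 fold change -0.46, SE 0.23). PHOX2A had a log2 fold change of -0.36 (SE 0.27) with overlapping groups. None of these 3 passed either limma fit, with adjusted p between 0.635 and 0.785 without the block and between 0.272 and 0.532 with it.

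The other 8 of the 12 most abundant genes lay close to 0. The log2 fold change was -0.01 for PBX3, with an SE of 0.05, 0.00 for PBX2 (SE 0.05), 0.01 for LHX1 (SE 0.04), 0.05 for MEIS3 (SE 0.04), 0.07 for POU4F2 (SE 0.06), -0.07 for POU3F1 (SE 0.08), -0.00 for PAX2 (SE 0.05) and -0.04 for NKX2-5 (SE 0.11). Thus POU4F1 was called with the block while its paralog POU4F2 was not, but the difference between them was not tested. NEUROG2 had a log2 fold change of -0.03 (SE 0.22), ISL1 one of 0.11 (SE 0.13), and OTX2, at 102, 102 and 125 normalized counts untreated and 62.9, 87.6 and 128 treated, one of -0.29 (SE 0.21). At these SEs changes of the size seen in POU4F1 could not be told from 0 in the scarce genes.

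By role, the block called 1 of 3 tested genes lower in the interneuron group and 1 of 8 in the sensory, motor and autonomic group. One call each, higher, fell in the groups of SIX3 (5 tested), of PAX2 (3 tested) and of the other POU genes (6 tested). No gene was called in the HOX, NKX, telencephalic or neurogenic groups, which hold mostly scarce transcripts. Of the 57 tested genes of the related list, limma called 0 without the block, with 8 at an unadjusted p under 0.05. With the block limma called 4 higher, CUX2 and ONECUT2 among them, where 2.82% of all genes were called higher. The 5 called lower were IRX2, IRX3, IRX5, TSHZ1 and DRGX, where 2.06% of all genes were called lower. The log2 fold changes of the Iroquois genes IRX2, IRX3 and IRX5 were -0.11, -0.38 and -0.45, with overlapping groups. Without the block their limma adjusted p was 0.856, 0.765 and 0.511. IRX1, IRX4 and IRX6, at -0.04, -0.04 and -0.11, were called in neither limma fit.

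The cAMP response element TGACGTCA, the palindrome bound by CREB, was looked for in RefSeq promoter windows (GRCh38.p14), which run from 250 bases before to 50 bases after a gene start. There were 56 windows, for 38 of the 56 genes. The element stood in 2 of the 56 windows, 3.57%, against 1.85% of all 35116 promoters and 2.63% of the 17137 promoters of genes that passed the read limit. Both stretches below end 1 base before the gene start, overlap no annotated exon and show the element in capitals. They are at chr15:76336653-76336772 (plus strand) for ISL2, with the element starting 37 bases before the gene start, and at chr11:31817962-31818081 (minus strand) for the most upstream PAX6 window, where it starts 76 bases before.
ISL2: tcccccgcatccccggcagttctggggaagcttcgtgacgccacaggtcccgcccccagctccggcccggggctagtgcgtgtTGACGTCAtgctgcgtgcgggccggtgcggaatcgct
PAX6: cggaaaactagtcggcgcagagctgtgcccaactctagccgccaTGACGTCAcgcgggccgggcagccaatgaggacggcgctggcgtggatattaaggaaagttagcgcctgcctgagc
Neither gene passed a limma fit. ISL2 was at 64.7, 74.5 and 54.8 normalized counts untreated and at 39.9, 56.5 and 70.8 treated, with overlapping groups and a log2 fold change of -0.24 (SE 0.22). PAX6 was at 43.9, 38.7 and 42.4 untreated and at 44.9, 57.7 and 45.1 treated, with a log2 fold change of 0.23 (SE 0.21). The shorter element TGACG, on either strand and contained in the full one, stood in 12 of the 56 windows, 21.4%, against 24.6% of all promoters and 30.9% of those of genes that passed the read limit. A window of POU4F1 and 1 of 2 windows each of LHX9 and POU6F1 were among the 12, the window of PAX5 was not, and no RefSeq window was given for SIX3. A match of letters is a description of the sequence and does not show that a factor binds there.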

How the data were processed

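RNA was sequenced as poly(A) libraries from 6 samples, 3 per group, grouped by the labels. The authors aligned reads to GRCh38, counted them per gene with featureCounts and divided them by DESeq2 size factors, and the deposited signal values are these normalized counts. Tool versions, the annotation release and the use of strand in counting are not given in the sources used here. Every value above 0 was a whole multiple (within 0.01 reads) of 1 step per library, which gave back the read counts behind the deposited values (100% whole) and size factors of 0.867 to 1.033. Levels per length (TPM) used the union of exons in GENCODE release 44, in which 56 of the 56 genes were found. Of these, 30 share exon bases with another gene, and without strand their reads could be split or mixed. Read length is not stated, so reads within runs shared by paralogs are uncertain.

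Genes with more than 5 reads in at least 4 samples were tested with limma 3.58.1 (R 4.3.3, intensity trend, robust) on log2(normalized count + 1), two-sided, with Benjamini-Hochberg adjustment over all genes tested. Alternatives were the replicate block, edgeR 4.0.16 and DESeq2 1.42.0 on the recovered reads, other scalings, filters, pseudocounts and lengths, and leaving out samples or, added after the data were seen, pairs. Deviations of same-numbered samples correlated at 0.269, 0.493 and 0.388 over 11587 genes, each over the 0.1 required, and replicate numbers were read as pairs. The fits were tested on simulated data.

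Genes were named by a rule: the 12 highest medians, every gene past FDR 0.05 in either limma fit, the 4 largest rises and falls at a mean of at least 10, fixed identity guides and HOX genes. Others were named after their values were seen, to complete a family. Some genes that the rules hold are not reported here. Members, lists and tests were chosen with earlier results of these data known.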

Additional observations from a re-analysis of the deposited data

How the results depend on the processing

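Reads limit what the scarce genes can show, and libraries of neurons without the knockdown were not analysed here. The count of the 48 genes past FDR 0.05, 0 without pairing, was 6 with the replicate block, 6 with edgeR and the block and 3 with DESeq2 and the block. It stayed 0 under the other scalings, filters and pseudocounts, under edgeR and DESeq2 without the block and when 1 library was left out, and it was 3 to 5 when 1 pair was left out with the block, so that leaving out samples gave 0 to 5. Over all genes the count, 3, became 885 with the block, 977 with edgeR and the block, 21 with DESeq2 and 143 with DESeq2 and the block. It was 2 to 67 without 1 library (67 without isoproterenol replicate 2) and 456 to 665 with the block and without 1 pair. The 9 genes with groups apart became 5 at a mean of at least 50 normalized counts and 9 to 23 with fewer samples, where separation is easier. The median log2 fold change, -0.0041, ranged from -0.040 (without isoproterenol replicate 2) to 0.017 when samples were left out. The signs of 11 named genes near 0 turned when samples were left out, over ranges of log2 fold change of -0.27 to 0.025 for EMX1, -0.18 to 0.42 for HOXB2, -0.0126 to 0.0411 for LHX1, -0.13 to 0.31 for MEIS2, -0.24 to 0.44 for NEUROD1, -0.22 to 0.20 for NEUROG2, -0.12 to 0.048 for NKX2-5, -0.0274 to 0.0153 for PAX2, -0.040 to 0.0446 for PBX2, -0.0503 to 0.0471 for PBX3 and -0.16 to 0.0101 for POU3F1. PAX2 was also at 0.000534 with total-count scaling, and PBX2 at -0.00173 with TMM, -0.00151 with recomputed size factors, -0.00283 with edgeR, -0.00205 with edgeR and the block, -0.00262 with DESeq2 and -0.00163 with DESeq2 and the block. The cause of these shifts was not tested. Among the genes named by the rule, the block changed the calls given beside them and no others.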
